A study of Mus musculus with 12 samples.

Results

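The insulin-like growth factor (IGF) system was followed through 9 genes, the ligands Igf1 and Igf2, the receptor Igf2r, and the binding proteins Igfbp2, Igfbp3, Igfbp4, Igfbp5, Igfbp6 and Igfbp7, chosen by gene symbol from the 15113 genes of the count table. All 9 were found there, and 8 had enough counts to enter the fit across all genes. C2C12, a line of mouse muscle precursor cells, was brought to fuse into myotubes by replacing growth serum with a little horse serum and then given 20 μM BAM15 dissolved in DMSO, or vehicle, for 16 h. BAM15 is a mitochondrial protonophore, a molecule that carries protons across the inner mitochondrial membrane and so uncouples respiration from ATP synthesis. RNA was sequenced from 6 libraries per group by QuantSeq, which reads only the 3′ ends of transcripts, so that counts are not proportional to transcript length. The samples are 1 cell line in culture, the labels give no genetic change in either group, and they do not say whether the 6 libraries of a group came from separate cultures, so the p-values measure only the spread between these libraries.

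IGF-I and IGF-II are secreted hormones that act on muscle through the IGF-I receptor, a tyrosine kinase that signals through insulin receptor substrates to AKT and the mTOR pathway, and myoblasts make both ligands themselves. IGF-II made by differentiating myoblasts promotes their fusion. The IGF-II receptor has no kinase: it carries mannose 6-phosphate tagged enzymes to lysosomes and removes IGF-II from the surroundings of the cell. IGF-binding proteins hold the ligands in the extracellular fluid, where they can block access to the receptor or store the ligand, and proteases that cut the binding proteins set the ligand free. Igfbp5 is the binding protein best known from differentiating muscle cells, Igfbp6 prefers IGF-II, and Igfbp7 binds IGFs only weakly and is often counted as a related protein.

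Between 13983725 and 18866728 reads were counted per library. The 10 myotube markers examined were all present, with summed levels of 301912 to 333615 normalized counts with vehicle and 295630 to 390824 with BAM15. Acta1 held a large part of this sum and rose from 127952 to 175768 on average. At an edgeR adjusted p below 0.01, Myog and Acta1 rose while Mymk, Mymx and Ckm fell, and the median log2 fold change of the list was −0.10. A normalized count here is the read count of a gene after scaling each library to the mean effective library size. All 7 proliferation markers fell at an edgeR adjusted p below 0.01, from a sum of 6024 to 6726 normalized counts to a sum of 2448 to 2755, 5 of them past all 3 thresholds described below. Of 4 tested fibroblast markers 3 fell, Dcn, Col1a1 and Col3a1, and the sum of that list was 24476 to 28024 with vehicle and 17993 to 21796 with BAM15. Of 8 markers of undifferentiated myoblasts 4 fell, Myod1 and Id2 past all 3 thresholds, and Myf5 rose, also past all 3. Myf5 had a mean of 148 normalized counts with vehicle, 261 in BAM15 libraries 1 to 3 and 698 in BAM15 libraries 4 to 6. The part of these lists in the values below was not tested. Defining adipocyte and endothelial markers were at or near 0 or were not in the table, while of the macrophage list Cd68, a lysosomal protein, rose from 13.7 to 64.2 normalized counts on average and Csf1r, too low to test, had 7.48 and 5.67, with Ptprc and Adgre1 not in the table. BAM15 libraries 1 to 3 stood apart from BAM15 libraries 4 to 6 on the second principal component, which held 17.0% of the variance, and the labels name no batch. BAM15 library 4 lay in between at 7.98, with −37.6 to −20.5 for libraries 1 to 3, 41.7 for library 5 and 28.3 for library 6. The set of numbers 4 to 6 is therefore not uniform. On the same component vehicle libraries 1 to 3 lay at −10.1 to 0.064 and vehicle libraries 4 to 6 at −1.29 to 10.4, which overlapped. Differences within each of these sets of numbers are therefore given for the members, and for other named genes where the sign, or the call at an adjusted p below 0.01, differed between the sets, with fewer libraries in each. As total RNA of a culture was sequenced, fewer cells of a type and less RNA per cell cannot be told apart.

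The genes were picked with the BAM15 contrast known, so their values are a description, no p is given for them, and nothing is read from how many passed a threshold. Over the members the direction was mixed, with Igf1, Igfbp2, Igfbp4 and Igfbp6 lower and Igf2 and Igfbp5 higher after BAM15, and with no overlap between the groups in any of these 6. Groups without overlap were seen in 34.2% of the 12730 tested genes, 17.1% higher and 17.0% lower. Past all 3 thresholds of the study (adjusted p below 0.01, mean of normalized counts above 50 and a change of more than 2-fold) lay 2 of the 8 tested members, Igf1 and Igfbp2, both lower, beside 3.58% of all tested genes that were called lower and 3.70% that were called higher, 7.28% in all. Igfbp2 and Igfbp4 were the members on either side of the fold threshold. The median log2 fold change of the 8 tested members was −0.37, and that of all tested genes was 0.02.

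A pair of neighbours on chromosome 1 moved in opposite directions, and they are shown with their upstream sequence together with Igfbp4, which moved with one of them. Igfbp2 (GRCm38, GENCODE M21, chr1:72824503-72852474, plus strand) and Igfbp5 (chr1:72857932-72874884, minus strand) point toward each other with 5457 bp between their 3′ ends and no annotated gene in between. Igfbp4 lies on another chromosome, at chr11:99041244-99054392 on the plus strand. The 250 bases before the RefSeq start (GRCm38.p6) are chr1:72824230-72824479 (plus strand) for Igfbp2, chr1:72874866-72875115 (minus strand) for Igfbp5 and chr11:99040994-99041243 (plus strand) for Igfbp4. Igfbp2 has a further RefSeq start whose window is not shown, and GENCODE places the Igfbp5 start slightly upstream of the RefSeq one, so that the last bases of its window lie in the annotated first exon. Capitals mark matches, on either strand, to TATAAA for the TATA box, CCAAT for the factor NF-Y, TGATGCAA for the ATF4 element of amino acid starvation, TGACGTCA for the CREB family, GTAAACA for forkhead factors or GGGCGG for the SP1 family, and no matches overlap in these windows.
Igfbp2: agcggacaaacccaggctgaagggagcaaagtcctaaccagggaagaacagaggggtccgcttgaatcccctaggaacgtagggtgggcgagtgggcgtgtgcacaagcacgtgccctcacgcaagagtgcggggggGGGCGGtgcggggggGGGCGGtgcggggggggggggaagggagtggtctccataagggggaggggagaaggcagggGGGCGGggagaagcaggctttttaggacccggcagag
Igfbp5: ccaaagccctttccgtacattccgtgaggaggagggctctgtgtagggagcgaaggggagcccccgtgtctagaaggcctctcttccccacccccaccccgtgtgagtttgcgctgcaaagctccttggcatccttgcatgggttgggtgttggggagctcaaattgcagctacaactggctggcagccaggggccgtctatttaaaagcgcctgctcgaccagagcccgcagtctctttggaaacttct
Igfbp4: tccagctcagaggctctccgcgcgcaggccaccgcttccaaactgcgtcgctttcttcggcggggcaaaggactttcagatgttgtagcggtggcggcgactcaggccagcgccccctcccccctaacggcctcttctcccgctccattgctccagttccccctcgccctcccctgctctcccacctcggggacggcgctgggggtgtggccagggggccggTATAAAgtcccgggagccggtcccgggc
The Igfbp2 window held 3 matches to GGGCGG. At least 1 such match was held by 32.74% of the 32851 RefSeq promoter windows of the same length. The Igfbp4 window held 1 TATAAA, found in 12.37% of all windows, 28 to 23 bases before the start. The Igfbp5 window held no match to the letters searched. GC content was 67.2% for Igfbp2, 69.2% for Igfbp4 and 58.8% for Igfbp5, against a median of 52.4% over all windows. CCAAT was held by 33.85% of all windows, TGATGCAA by 0.7915%, TGACGTCA by 1.546% and GTAAACA by 3.166%, and the windows shown had none of these. All 9 members had a promoter in the RefSeq table.

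Igf1, the ligand through which growth hormone acts on muscle and which muscle cells also make for themselves, was the member with the largest difference. Its vehicle libraries had a lowest, median and highest level of 144, 155 and 158 normalized counts. With BAM15 the same values were 9.39, 12.2 and 17.9. Every BAM15 library thus lay far below every vehicle library, and the spread of the vehicle libraries was small. Mean levels were 153 ± 5.46 with vehicle and 12.4 ± 3.06 with BAM15 (SD, n = 6 each), 12.4-fold lower, and the log2 fold change was −3.61 (SE 0.14). Of the 12730 tested genes only 3 had a lower log2 fold change. The BAM15 values rest on 9 to 19 reads per library, whereas 133 to 173 reads were counted with vehicle, so the size of the difference is less well fixed than its direction. Within numbers 1 to 3 of both groups the log2 fold change was −3.50, and within numbers 4 to 6 it was −3.76. Igf1 (chr10:87858265-87937042, plus strand) has 5 annotated 3′ ends, none of which overlaps another gene, and the counts do not separate transcripts by their ends.

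Igf2, the fetal growth factor gene that is also switched on as myoblasts differentiate, was higher after BAM15. It had 4294, 4728 and 4996 normalized counts with vehicle (lowest, median, highest). After BAM15 it had 5658, 6414 and 7045. The lowest BAM15 library lay above the highest vehicle library, and the difference was modest. The means were 4682 ± 242 with vehicle and 6355 ± 558 with BAM15 (SD, n = 6 each), 1.36-fold higher, with a log2 fold change of 0.44 (SE 0.06). Within numbers 1 to 3 it was 0.36, and within numbers 4 to 6 it was 0.50. The Igf2 count is uncertain in 1 respect: Gm49394, a gene on the same strand at chromosome 7 that is not a row of the count table, covers 83.25% of the bases at the annotated Igf2 3′ ends, and reads there cannot be assigned to either by sequence. Per Igf1 read, a BAM15 library held 317 to 750 Igf2 reads (median 543.5), and a vehicle library held 27.2 to 34.7 (median 30.8). This ratio holds both the lower Igf1 and the modestly higher Igf2.

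Igf2r, the receptor that clears IGF-II, overlapped between the groups. Vehicle libraries had 536, 803 and 952 normalized counts (lowest, median, highest), with the lowest value in library 5. BAM15 libraries had 807, 921 and 1080. The log2 fold change was 0.24 (SE 0.12), and the shift of the means was about the size of the SD within vehicle, 789 ± 150 against 928 ± 103 (SD, n = 6 each). Without vehicle library 5 it was 0.14, and within numbers 1 to 3 and 4 to 6 it was 0.18 and 0.28. Igf2r lies at chr17:12682406-12769664 on the minus strand and has 1 annotated 3′ end that no other gene overlaps.

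**Figure D1:**
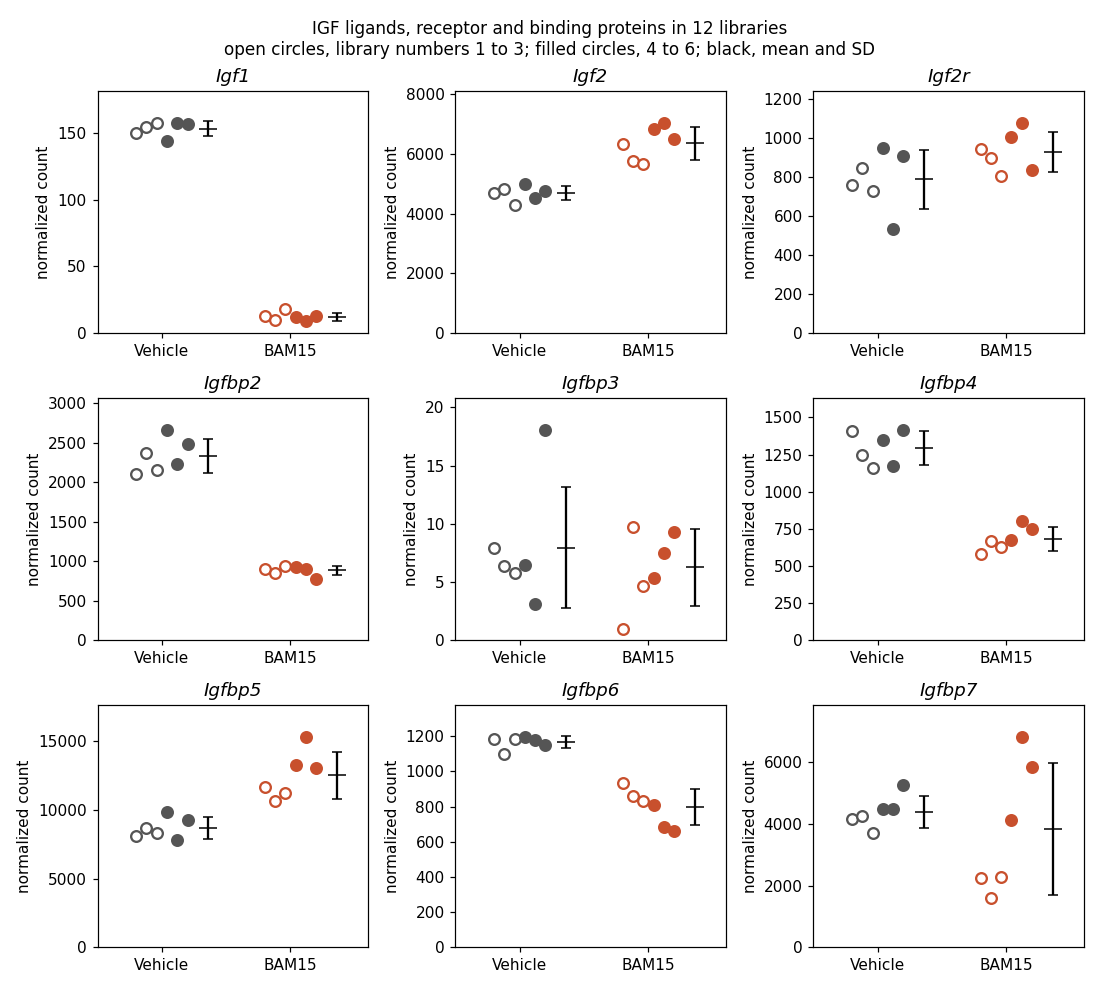
Normalized counts of the 9 genes (vertical axes, each from 0) in the 6 vehicle and 6 BAM15 libraries, with 1 circle per library, open for numbers 1 to 3 and filled for 4 to 6, and black marks for the mean and SD. The groups do not overlap for Igf1, Igf2, Igfbp2, Igfbp4, Igfbp5 and Igfbp6, and for Igfbp7 the open and filled BAM15 circles separate, at 1604 to 2283 and 4126 to 6804.

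Igfbp5 had the highest level of the 9 genes in both groups and the largest gain. Its product is secreted and also binds the extracellular matrix. Vehicle libraries had 7823, 8518 and 9859 normalized counts (lowest, median, highest), and BAM15 libraries had 10651, 12348 and 15295. No BAM15 library was as low as the highest vehicle library. The means were 8676 ± 766 and 12510 ± 1695 (SD, n = 6 each), 1.44-fold higher with BAM15, and the log2 fold change was 0.53 (SE 0.09). BAM15 libraries 4 to 6 had 13015 to 15295 and BAM15 libraries 1 to 3 had 10651 to 11680, so the gain was present in both sets but differed in size, at 0.61 on the log2 scale within numbers 4 to 6 and 0.41 within 1 to 3. Set against all 6 vehicle libraries, BAM15 libraries 1 to 3 gave 0.37.

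Igfbp2, a binding protein of fetal tissue that prefers IGF-II and can also bind integrins, was lower after BAM15. Vehicle libraries had 2107, 2305 and 2667 normalized counts (lowest, median, highest). BAM15 libraries had 776, 901 and 940. The groups were well separated, and the BAM15 libraries lay close together. The means were 2338 ± 213 and 884 ± 61.3 (SD, n = 6 each), 2.64-fold lower with BAM15, with a log2 fold change of −1.40 (SE 0.07). It was −1.30 within numbers 1 to 3 and −1.51 within numbers 4 to 6. Neither Igfbp2 nor Igfbp5 overlaps another gene at its 3′ end, and no 50-base window of these ends was found in other genes' transcripts.

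Igfbp4, an inhibitory binding protein that the protease PAPP-A cuts, was also lower. Vehicle libraries had 1157, 1298 and 1417 normalized counts (lowest, median, highest), and BAM15 libraries had 578, 672 and 802. There was no overlap. The means were 1293 ± 115 and 683 ± 81.0 (SD, n = 6 each), 1.89-fold lower with BAM15, and the log2 fold change was −0.92 (SE 0.08). This lay just under the 2-fold threshold, and within numbers 1 to 3 it lay just over it, at −1.03, with −0.83 within numbers 4 to 6. Of the 50-base windows at its 3′ ends, 7.94% also occur in transcripts of other genes.

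Igfbp6, which binds IGF-II in preference to IGF-I, was tightly grouped in vehicle and lower after BAM15. Vehicle libraries had 1101, 1181 and 1196 normalized counts (lowest, median, highest), and BAM15 libraries had 662, 820 and 934. The highest BAM15 library was below the lowest vehicle library. The means were 1165 ± 35.4 and 797 ± 104 (SD, n = 6 each), 1.46-fold lower with BAM15, and the log2 fold change was −0.55 (SE 0.08). BAM15 libraries 4 to 6 were the lower set, so the difference was −0.72 within numbers 4 to 6 and −0.41 within numbers 1 to 3. Igfbp6 lies at chr15:102144362-102149511 on the plus strand.

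Igfbp3, the main carrier of IGFs in blood, was near the limit of detection in these cells. Between 3 and 20 reads were counted per vehicle library and between 1 and 9 per BAM15 library, and the gene (chr11:7206086-7213923, minus strand) was removed by the filter on low counts. Its levels were 7.95 ± 5.21 and 6.26 ± 3.29 normalized counts (SD, n = 6 each), and the groups overlapped. The difference between the groups was therefore not tested.

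Igfbp7 (chr5:77349240-77408041, minus strand) encodes a secreted protein of the matrix and vessel wall, and it was the member that varied most among BAM15 libraries. Vehicle libraries had 3701, 4356 and 5241 normalized counts (lowest, median, highest). BAM15 libraries had 1604, 3204 and 6804, so that they reached both below and above all vehicle libraries. BAM15 libraries 1 to 3 had 1604 to 2283, BAM15 libraries 4 to 6 had 4126 to 6804, and the vehicle libraries of the same numbers had 3701 to 4231 and 4482 to 5241. The log2 fold change was −0.20 (SE 0.32) over all libraries, −0.98 within numbers 1 to 3 and 0.23 within numbers 4 to 6. With 1 library left out it ranged from −0.44 to −0.04. The direction thus depended on which set of numbers was compared. The coefficient of variation was 56.0% with BAM15 and 11.7% with vehicle, where the medians over all tested genes were 14.8% and 9.81%. Of the 408 bases at its 3′ end, 85 are covered on the opposite strand by Polr2b.

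**Figure D2:**
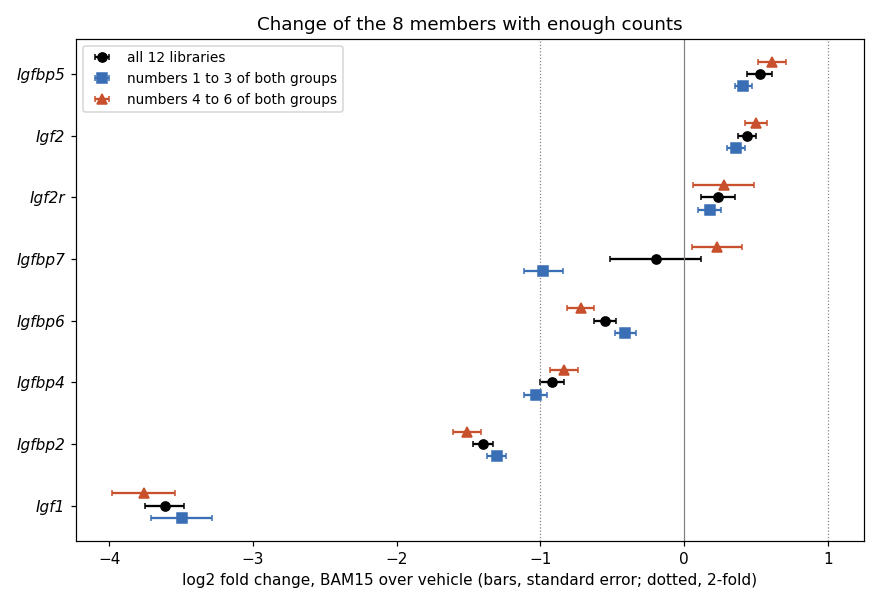
Log2 fold change of BAM15 over vehicle (horizontal axis, bars for the SE) for the 8 members with enough counts, over all 12 libraries (circles), within numbers 1 to 3 (squares) and within numbers 4 to 6 (triangles). Igf1 lies furthest to the left at −3.61, and Igfbp7 is the gene whose estimate crosses 0 between the sets, from −0.98 to 0.23.

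In order of level with vehicle, Igfbp5 came first, then Igf2 and Igfbp7, whose ranges overlapped, then Igfbp2, then Igfbp4 and Igfbp6, whose ranges overlapped, then Igf2r, Igf1 and Igfbp3. These are 3′ read counts, which do not scale with length, but priming and mapping at each 3′ end also set them, so the order is approximate. With BAM15 the order of Igfbp5 and Igf2 was kept, and Igf1 came near Igfbp3. In order of their means Igf2r, Igfbp2, Igfbp6 and Igfbp4 lay close together, with ranges that overlap from 1 to the next.

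The reads on Igfbp2 to Igfbp6 shifted toward Igfbp5. Their sum overlapped between the groups, at 12418 to 15079 normalized counts with vehicle and 13041 to 17691 with BAM15. Left out was Igfbp7, with means of 4379 normalized counts with vehicle and 3817 with BAM15. Adding Igfbp7 to the sum would lower every share below. Of the sum without Igfbp7, Igfbp5 took 63.0% to 65.4% with vehicle (median 64.7%) and 81.7% to 86.5% with BAM15 (median 83.7%). The share of Igfbp2 was 16.5% to 18.0% with vehicle and 5.09% to 6.91% with BAM15. Igfbp2, Igfbp4 and Igfbp6 together gave 4499 to 5213 normalized counts with vehicle and 2185 to 2421 with BAM15. Within a library there were 3.50 to 3.87 Igfbp5 reads per Igfbp2 read with vehicle and 11.9 to 17.0 with BAM15. The change in these shares follows from the levels above and is no further evidence.

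**Figure D3:**
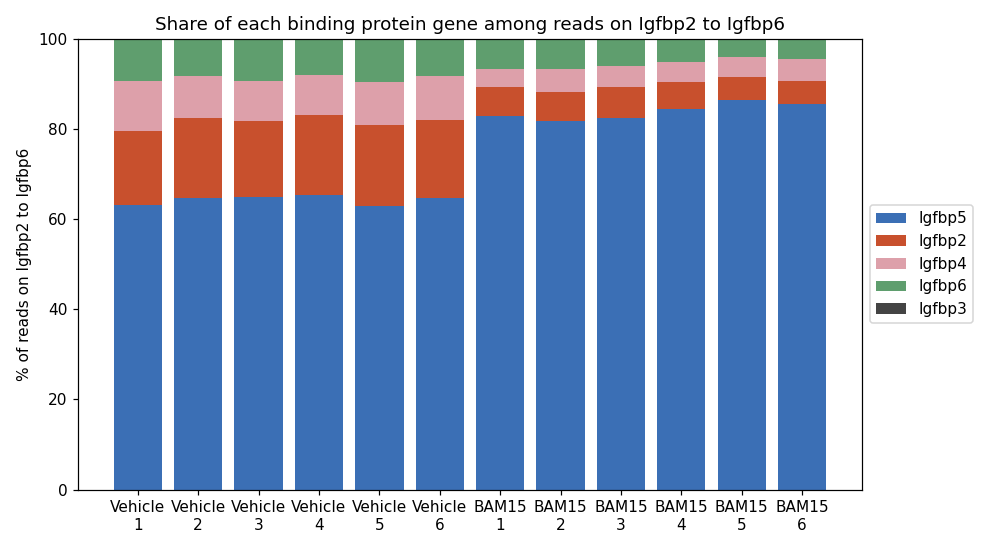
Percent of the reads on Igfbp2 to Igfbp6 (vertical axis) that fell on each gene, in each library (horizontal axis), with vehicle on the left and BAM15 on the right. The Igfbp5 block fills 63.0% to 65.4% of the vehicle bars and 81.7% to 86.5% of the BAM15 bars, and Igfbp3 is too rare to be seen.

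The genes whose profile over the 12 libraries was most like that of Igf1, by the root mean square difference of log2 normalized counts (CPM scale) centred on the vehicle mean, were Tk1 (thymidine kinase, 0.27), Cmklr1 (a receptor for chemerin, 0.28) and Pclaf (a PCNA-binding protein, 0.33). For Igfbp5, the member with the largest gain, they were Uhrf1bp1l (0.050), Zranb1 (0.072) and Sdc2 (a cell-surface heparan sulfate proteoglycan, 0.074).

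Other genes of the system were taken from 7 lists of 70 genes set by role. The lists were drawn up with earlier results of these data known, so p-values for these genes are not from tests planned before the data. The table held 59 of them and 53 had enough counts, and the quasi-likelihood test of edgeR, adjusted by Benjamini-Hochberg over all 12730 tested genes, gave an adjusted p below 0.01 to 26, 15 that rose and 11 that fell. Over all tested genes 22.0% rose and 20.3% fell at that threshold, 42.3% in all, so the share in the lists was near the background. Past all 3 thresholds were 4 that rose (Irs2, Htra1, Adamts1, Ccn1) and 3 that fell (Adam12, Timp1, Ccn3). The median log2 fold change of the 53 genes was 0.09, beside 0.02 for all tested genes. Genes named below that were neither past all 3 thresholds nor set to be named by the rule were chosen after their values were seen.

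Among receptors and adaptors, 3 of 11 tested genes rose and 2 fell at adjusted p below 0.01. Igf1r, the receptor for both IGFs, had 1355 to 1968 normalized counts with vehicle and 1218 to 1445 with BAM15, a log2 fold change of −0.28 (SE 0.09, edgeR adjusted p = 0.0198), which missed the threshold. This depended on the setting, since the edgeR adjusted p was 0.00518 when scaled by library size only, 0.00594 without vehicle library 2 and 0.111 within numbers 1 to 3 (log2 fold change −0.14). Within numbers 4 to 6 the edgeR adjusted p was 0.0142 (log2 fold change −0.42). Insr, the insulin receptor, rose from 187 to 316 normalized counts with vehicle to values between 340 and 401, a log2 fold change of 0.71 (SE 0.11, edgeR adjusted p = 9.08e-05). Within numbers 4 to 6 the change of Insr was 0.54 and missed the threshold (edgeR adjusted p = 0.0165), and within numbers 1 to 3 it was 0.88. The insulin receptor substrates, the docking proteins of both receptors, moved in opposite directions. Irs2 had 231 to 332 normalized counts with vehicle and 572 to 660 with BAM15, a log2 fold change of 1.19 (SE 0.09, edgeR adjusted p = 1.75e-08). Irs1 had 741 to 1072 with vehicle and 455 to 695 with BAM15, a log2 fold change of −0.73 (SE 0.11, edgeR adjusted p = 6.15e-05). Of the last 400 bases of Irs1, 389 are covered on the opposite strand by Gm9747, and the strand used in counting is not given in the sources used here. Grb10, an imprinted adaptor that restrains both receptors, had only 5.42 to 20.6 and 6.80 to 16.0 normalized counts and a log2 fold change of −0.07 (SE 0.31, edgeR adjusted p = 0.871). It was −0.18 within numbers 1 to 3 and 0.034 within numbers 4 to 6. The other genes of this list past adjusted p below 0.01 were Sh2b1, which rose, and Grb2, which fell, with log2 fold changes of 0.32 and −0.46. Sh2b1 missed that threshold within numbers 4 to 6 (0.24, edgeR adjusted p = 0.0994), and also without BAM15 library 3 or vehicle library 2, 4 or 6, at edgeR adjusted p values of 0.0101 to 0.0107. When scaled by library size only, Sh2b1 missed it too (0.26, edgeR adjusted p = 0.0123).

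The proteases that cut IGF-binding proteins, with their inhibitors, made up the list with the most tested genes. Of these 13 genes, 6 rose and 4 fell at adjusted p below 0.01. Over all tested genes 22.0% rose and 20.3% fell at that threshold. Htra1, a serine protease that cleaves Igfbp5 among other substrates, had 676 to 787 normalized counts with vehicle and 1681 to 1821 with BAM15, a log2 fold change of 1.26 (SE 0.05, edgeR adjusted p = 3.95e-11). Adamts1, a secreted metalloprotease, rose from 526 to 638 normalized counts with vehicle to values between 1118 and 1420, a log2 fold change of 1.10 (SE 0.07, edgeR adjusted p = 2.57e-09). Adam12, a membrane metalloprotease of fusing myoblasts that can cut Igfbp3 and Igfbp5, fell from 77.6 to 108 normalized counts with vehicle to values between 12.2 and 20.4, a log2 fold change of −2.36 (SE 0.16, edgeR adjusted p = 8.19e-09), and its mean over the libraries was so close to the threshold of 50 that it dropped below it without vehicle library 1, 3, 4, 5 or 6. Timp1, an inhibitor of matrix metalloproteases, fell from 7097 to 8132 normalized counts with vehicle to values between 2893 and 3443, a log2 fold change of −1.23 (SE 0.06, edgeR adjusted p = 1.58e-10). For all 4 genes every BAM15 library lay outside the range of vehicle.

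Pappa encodes PAPP-A, the protease that frees IGF from Igfbp4, and it rose. Its vehicle libraries had 28.2 to 66.0 normalized counts and its BAM15 libraries 64.8 to 104, which overlapped slightly, with a log2 fold change of 0.90 (SE 0.21, edgeR adjusted p = 0.00197) that passed 2-fold without vehicle library 4 (1.02) or 6 (1.03). Within numbers 1 to 3 it was 1.19, and within numbers 4 to 6 it was 0.65 and missed the threshold (edgeR adjusted p = 0.0569). Stc2, whose product binds and inhibits PAPP-A, also rose from 102 to 126 normalized counts with vehicle to values between 190 and 253, a log2 fold change of 0.90 (SE 0.09, edgeR adjusted p = 6.83e-07). Over all libraries the protease and its inhibitor thus both rose. Pappa2, a relative that cuts Igfbp3 and Igfbp5, had 5.42 to 16.2 and 47.5 to 80.7 normalized counts, and it rose by 2.32 on the log2 scale (SE 0.23, edgeR adjusted p = 6.45e-07), with a mean level too low for the study's threshold. Stc1, the other stanniocalcin, was too low to test, at 6.38 to 19.5 with vehicle and 0 to 4.69 with BAM15. Mmp2 rose by 0.82 on the log2 scale, while Mmp14 fell by 0.86 and Timp2 fell by 0.65.

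**Figure D4:**
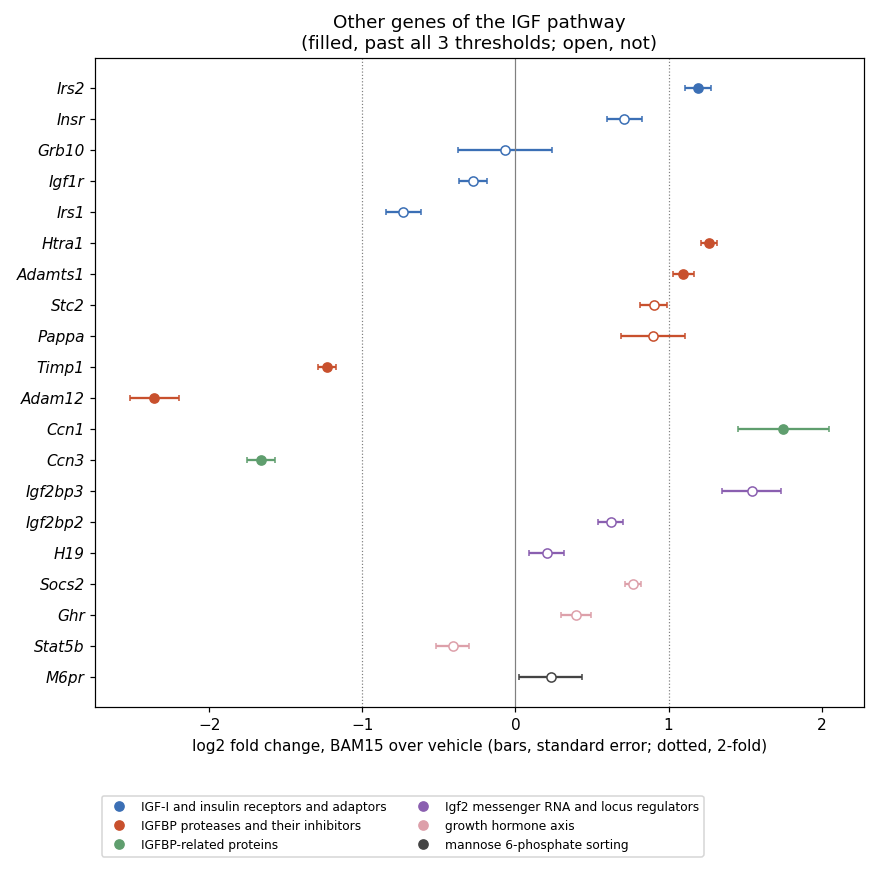
Log2 fold change of BAM15 over vehicle (horizontal axis, bars for the SE) for 20 other genes of the IGF system, coloured by list, filled where all 3 thresholds were passed. Irs2, Htra1, Adamts1 and Ccn1 are filled on the right and Timp1, Adam12 and Ccn3 on the left, while Grb10, H19 and M6pr lie near 0.

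Proteins that share the IGF-binding domain but act mainly on the matrix gave 1 gene that rose and 2 that fell at adjusted p below 0.01 among 7 tested. Ccn1 (CYR61, a matricellular protein) had 45.9 to 88.7 normalized counts with vehicle and 124 to 470 with BAM15, a log2 fold change of 1.75 (SE 0.30, edgeR adjusted p = 0.000221). The high value belonged to BAM15 library 5, and the other BAM15 libraries reached 218. Within numbers 4 to 6 the change was 1.99 at an edgeR adjusted p of 0.0111, and within numbers 1 to 3 it was 1.40. Ccn3 (NOV) fell from 450 to 583 normalized counts with vehicle to values between 129 and 166, a log2 fold change of −1.66 (SE 0.09, edgeR adjusted p = 8.25e-10), and Ccn4 fell by 0.81 on the log2 scale. Esm1 was listed at 0 in all vehicle libraries and at 1.17 to 9.40 with BAM15, too low to test.

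Of the regulators of Igf2 messenger RNA and of its locus, 2 of 5 tested genes rose. Igf2bp2, an RNA-binding protein of myoblasts that binds Igf2 messenger RNA, had 841 to 972 normalized counts with vehicle and 1204 to 1581 with BAM15, a log2 fold change of 0.62 (SE 0.08, edgeR adjusted p = 1.48e-05). It was 0.77 within numbers 1 to 3 and 0.44 within numbers 4 to 6. Igf2bp3 had 11.5 to 18.6 and 31.1 to 51.7, a log2 fold change of 1.54 (SE 0.19, edgeR adjusted p = 7.77e-06), but all of its last 400 bases are covered on the opposite strand by Malsu1. Igf2bp1 was too low to test, at 0.88 to 11.8 and 0 to 9.72. H19, the non-coding RNA that lies 72622 bp from Igf2 and shares its imprinting control, had far more 3′ reads than Igf2, with 278343 to 334418 normalized counts with vehicle and 263856 to 428650 with BAM15. Its log2 fold change was 0.20 (SE 0.11, edgeR adjusted p = 0.148). Within numbers 1 to 3 H19 rose by 0.37 (edgeR adjusted p = 3.96e-05), and within numbers 4 to 6 its log2 fold change was −0.020. Ins2, the nearest gene to Igf2 on the other side at 11839 bp, was the only other ligand gene with enough counts and fell from 79.5 to 122 normalized counts with vehicle to values between 45.1 and 65.8, a log2 fold change of −0.93 (SE 0.14, edgeR adjusted p = 5.33e-05). Igfals, the acid-labile subunit of the blood complex, had at most 0.88 normalized counts, and Igfbp1 was not found in the count table.

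In the growth hormone axis, which drives Igf1 transcription in liver and muscle, 2 of 8 genes rose and 2 fell. Ghr, the growth hormone receptor, had 792 to 983 normalized counts with vehicle and 925 to 1460 with BAM15, a log2 fold change of 0.40 (SE 0.10, edgeR adjusted p = 0.00332). Stat5b, the transcription factor that carries the signal to Igf1, had 474 to 573 and 321 to 494, a log2 fold change of −0.41 (SE 0.11, edgeR adjusted p = 0.0049), and Stat5a fell by 0.59. The groups of Ghr and of Stat5b overlapped, and each missed the threshold in 1 set. Ghr was 0.24 within numbers 1 to 3 (edgeR adjusted p = 0.0126) and 0.52 within numbers 4 to 6, and Stat5b was −0.60 within numbers 1 to 3 and −0.27 within numbers 4 to 6 (edgeR adjusted p = 0.0885). Stat5b also missed it without BAM15 library 1, 2, 3 or 4 or vehicle library 4 or 6, at edgeR adjusted p values of 0.0103 to 0.0137. Socs2, the feedback inhibitor of this receptor, rose from 1673 to 1923 normalized counts with vehicle to values between 2892 and 3254, a log2 fold change of 0.77 (SE 0.05, edgeR adjusted p = 8.57e-09), although 35.02% of the 50-base windows at its 3′ ends also occur in the gene models Gm8000 and Gm9847.

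Mannose 6-phosphate sorting, the other task of Igf2r, showed 1 gene of 8 that rose, the adaptor Gga1, with a log2 fold change of 0.25. Gga1 missed the threshold within either set, at 0.19 and 0.29 (edgeR adjusted p = 0.0243 and 0.0154). M6pr, the smaller mannose 6-phosphate receptor, had 378 to 482 normalized counts with vehicle and 318 to 875 with BAM15, a log2 fold change of 0.23 (SE 0.20, edgeR adjusted p = 0.366). Its BAM15 libraries 1 to 3 had values of 318 to 392 and libraries 4 to 6 had 502 to 875, so this estimate changed sign between the sets, at −0.19 within numbers 1 to 3 and 0.52 within numbers 4 to 6.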

How the data were processed

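RNA of C2C12 myotubes was measured in 12 libraries, 6 given 20 μM BAM15 for 16 h and 6 given vehicle. The authors made QuantSeq 3′ libraries, aligned forward reads with BlueBee software and deposited whole-number read counts per Ensembl gene, without normalization. The submitters' processing notes name GRCm38 (mm10) and DESeq2 1.22.2, and the annotation and strand of the counting are not given in the sources used here. A second deposited table of normalized signal, made by the authors with DESeq2, gave the gene symbols and was checked to hold the counts divided by 1 factor per library, and no level or test rests on it. The tables also hold 11 columns of other samples, which were not used.

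Counts were fitted in R 4.3.3 with edgeR 4.0.16 (filterByExpr, TMM scaling, robust quasi-likelihood test, treatment as the only term), and p-values were adjusted over 12730 tested genes by the Benjamini-Hochberg method; 2383 genes with low counts were left out. Thresholds were an adjusted p below 0.01, a mean of normalized counts above 50 and more than 2-fold. Total counts were 13983725 to 18866728 per library, and the libraries of a group differed by more than sampling noise. Python 3.11.15 and matplotlib 3.10.9 drew the figures.

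The members and gene lists were chosen with earlier results of these data known. The rule for named genes took all members, every listed pathway gene past all 3 thresholds and a fixed set of receptors, adaptors, proteases, regulators and growth hormone genes, and for the members with the largest gain and loss the 3 genes nearest in profile. Alternatives were other scalings and filters, DESeq2 1.42.0, limma-voom (limma 3.58.1), a block for the library number, a term for numbers 1 to 3 against 4 to 6, each set of numbers alone, each library left out, and other thresholds. Overlaps at 3′ ends were read from GENCODE M21, over the last 400 bases of each transcript and in windows of 50 bases. Tests were checked on simulated data.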

Additional observations from a re-analysis of the deposited data

Results flagged for a closer look

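In 4 of the 58 groups of 6 libraries examined, 1 library lay far from the other 5 by Dixon's ratio, and chance alone gives about 1 in 20 such groups. Vehicle library 6 had 18.1 normalized counts of Igfbp3, where the other vehicle libraries had 3.09 to 7.92. BAM15 library 6 had 339.7 of Insr, where the others had 379.8 to 400.5. BAM15 library 5 had 470 of Ccn1, where the others had 124 to 218. Vehicle library 2 had 583 of Ccn3, where the others had 450 to 471.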

How the results depend on the processing

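Directions of Igf1, Igf2, Igf2r, Igfbp2, Igfbp4, Igfbp5 and Igfbp6 were the same under every scaling, filter, tool and left-out library that gave a value, and Igf1 ranged from −3.76 to −3.49 on the log2 scale. Requiring at least 10 counts in every library removed Igf1 from the test and left 1 member called lower. With BAM15 1 to 3 against all vehicle libraries, 4 members were called lower, and Igfbp5 was 0.37 and Igfbp7 −1.10; 6 listed pathway genes were called lower, and 7 within numbers 1 to 3. Igfbp6 was −0.41 within numbers 1 to 3 and −0.72 within 4 to 6, and Igfbp7 −0.98 and 0.23. At an adjusted p below 0.05 alone, 2 members were higher and 4 lower, 18 and 12 pathway genes, and 3559 and 3325 of all genes. At a log2 fold change above 2, 1 member was lower, 0 pathway genes were higher and 1 was lower, and 134 and 55 of all genes were called. Leaving out 1 library gave 4 to 5 pathway genes higher and 2 to 3 lower, 457 to 485 and 448 to 483 of all genes, and always 2 members lower. Adam12 (−2.36) fell below the mean level of 50 without vehicle library 1, 3, 4, 5 or 6. Pappa passed 2-fold within numbers 1 to 3 (1.19) and without vehicle library 4 (1.02) or 6 (1.03), and missed an adjusted p of 0.01 within numbers 4 to 6 (0.65), as did Ccn1 (1.99), Insr (0.54), Sh2b1 (0.24) and Stat5b (−0.27). Ghr missed it within numbers 1 to 3 (0.24), with BAM15 1 to 3 against all vehicle (0.19) and when scaled by library size only (0.34). Sh2b1 (0.26) and Gga1 (0.18) also missed it when scaled by library size only. Between the sets of numbers, some listed genes not named by the rule differed in sign, such as Cish, Adam9 and Gab1. Cish was −0.79 within numbers 1 to 3 and 1.10 within numbers 4 to 6, Adam9 −0.37 and 0.75, and Gab1 −0.51 and 0.48. Among listed genes named by the rule, signs turned for 3 that missed the threshold over all libraries. Grb10 was 0.034 within numbers 4 to 6, and −0.22 to 0.17 with 1 library left out, above 0 without BAM15 library 1 (0.038) or vehicle library 4 (0.17). H19 was −0.020 within numbers 4 to 6, but passed it within numbers 1 to 3 (0.37) and with BAM15 1 to 3 against all vehicle (0.43). M6pr was −0.19 within numbers 1 to 3, −0.25 with BAM15 1 to 3 against all vehicle and −0.0028 (without BAM15 library 5) to 0.33 with 1 library left out. Except where the construction shows it, the cause was not tested. Scaling moved the median of all genes by at most 0.061.

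The groups share library numbers, but the labels do not tie libraries of a number together. Same-number correlations of deviations from the group means were −0.0756 to 0.311, and 4 of 6 pairs were over 0.1. By these correlations 2 of 6 BAM15 libraries were closest to their own number. BAM15 libraries 1 to 3 were each closest to vehicle library 3, and BAM15 libraries 4 to 6 to vehicle library 6. A likeness within these sets of numbers thus crossed the groups, and its cause was not tested. A replicate block for the number gave 465 genes higher and 468 lower of all genes, 4 and 3 pathway genes and 2 members lower, with Igf1 at −3.62, Igfbp2 at −1.40 and Igfbp7 at −0.38, and changed no call among the members and named pathway genes. Of all genes, 461 higher and 454 lower were called both with and without the block.

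Igf1 after BAM15 and Igfbp3 in both groups rest on few reads, which limits their precision.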

Other observations

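Some genes showed the same split between BAM15 libraries 1 to 3 and 4 to 6 as Igfbp7. The genes nearest to Igfbp7 in profile, named after the values were seen, were Ndufb3 (root mean square difference 0.065), Atp5j (0.089) and E2f6 (0.11), whose log2 fold changes over all 12 libraries were −0.14, −0.24 and −0.15. H19 split the other way, at 390118 to 428650 normalized counts in BAM15 libraries 1 to 3 and 263856 to 312473 in 4 to 6, with 278343 to 334418 over all vehicle libraries.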
